A study of Drosophila melanogaster with 12 samples.

Results

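The JAK/STAT pathway of Drosophila was followed through 7 genes, upd1, upd2, upd3, dome, hop, Stat92E and Socs36E, in sorted wing disc cells before and after ionizing radiation (IR). The genes were chosen by name as the ligands, the receptor, the kinase, the transcription factor and the feedback inhibitor of the pathway, and are 7 of the 17753 genes in the count table. The larvae carried a hinge lineage tracer, 30A-GAL4>UAS-G-trace, in which RFP marks cells that express GAL4 now and GFP marks cells that expressed it at any earlier time. They came from 30A>G-trace/SM5 females mated to w1118 males and were picked by hand for both colours, so that every group, controls included, carried the tracer. POS cells were RFP+GFP+ and stand for the hinge, and NEG cells were RFP-GFP- and stand for the rest of the disc, pouch and notum together. The 6 groups were POS -IR, POS IR+24h, POS IR+48h, NEG -IR, NEG IR+24h and NEG IR+48h, with 2 libraries in each.

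Several features limit these groups as a model. The 30A driver sits in an intron of ds and labels only some of the cells in which ds is expressed. Each library pooled discs from several crosses, dissections and sorts. The -IR discs were taken 24 h after mock irradiation, the same interval as for the IR+24h discs after IR. No -IR group was taken at 48 h, and the IR+48h groups mixed larvae irradiated at different ages. In comparisons with IR+48h, the time after IR and the age of the disc therefore cannot be told apart.

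The pathway carries a signal from outside the cell to the nucleus. Secreted cytokines of the Unpaired family bind the receptor Domeless at the cell surface, the Janus kinase Hopscotch is activated on the receptor, and the transcription factor Stat92E is phosphorylated and switches on target genes. Socs36E is such a target and in turn restrains the pathway. In the wing disc, JAK/STAT activity is known for its place in the hinge and for a part in survival and regrowth after damage.

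All 3 ligand genes lie on the X chromosome within 68.6 kb, in Release 6 coordinates taken from the BDGP6.54 annotation. upd2 (FBgn0030904) spans 18240654 to 18243284 on the minus strand, upd3 (FBgn0053542) spans 18277233 to 18284596 on the plus strand, and upd1 (FBgn0004956) spans 18305354 to 18309291 on the minus strand. The gap between upd2 and upd3 is 33.9 kb and holds 1 other protein-coding gene, and the gap of 20.8 kb between upd3 and upd1 holds 0. dome (FBgn0043903, X, 19676061 to 19683518) and hop (FBgn0004864, X, 11360930 to 11368098) also lie on X, while Stat92E (FBgn0016917) lies on 3R from 20535323 to 20552311 and Socs36E (FBgn0041184) on 2L from 18138675 to 18152417. None of the 7 shares an exon base with another annotated gene on either strand (0.0% in each).

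Library totals ran from 4211088 to 19940040 counts. The lowest belonged to NEG -IR replicate 1, and the next lowest was 11560273. Values are CPM, counts scaled to the library total with TMM factors, which correct for differences in library composition, and 3 counts, the smallest number read here as detection, equal 0.726 CPM in the shallowest library and 0.146 CPM in the deepest. All 7 genes were above 3 counts in every library, with a lowest value of 8 counts for upd3 in NEG -IR replicate 1. The sort was visible in hinge markers, of which 3 of 5 (zfh2, Sox15 and ds) were called higher in POS at each time. The summed level of zfh2, Sox15, hth, tsh and ds was 6467 to 9841 CPM in POS -IR against 2354 to 2749 CPM in NEG -IR. Markers of other cells in the disc were not absent from either gate. Muscle precursor markers summed to 63.3 to 111 CPM in POS -IR, 145 to 152 CPM in POS IR+24h and 218 to 232 CPM in POS IR+48h, against 552 to 1535 CPM in NEG -IR, 474 to 762 CPM in NEG IR+24h and 502 to 993 CPM in NEG IR+48h. Hemocyte markers summed to 5.71 to 14.8 CPM over the 6 POS libraries against 62.9 to 293 CPM over the 6 NEG libraries, and He was at or under 3 counts in POS after IR.

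The ligand genes were far less abundant than the rest of the pathway. Median levels over the 12 libraries were 12.3 CPM for upd1, 13.4 CPM for upd2 and 10.5 CPM for upd3, and 44.1% to 48.1% of the 10617 genes tested had a lower median than each of them. The medians of the downstream genes were 98.0 CPM for hop, 212 CPM for Socs36E, 269 CPM for Stat92E and 282 CPM for dome. Per kilobase of exon, on the CPM per kb scale, the medians were 3.92 for upd1, 6.76 for upd2, 4.72 for upd3, 19.4 for hop, 51.6 for Stat92E, 57.8 for dome and 60.4 for Socs36E. The ligands also varied most, with a highest library 52.0 times the lowest for upd1, 19.4 times for upd2 and 20.3 times for upd3. The same ratio was 2.72 for Socs36E, 1.83 for dome, 1.47 for hop and 1.45 for Stat92E.

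**Figure D1:**
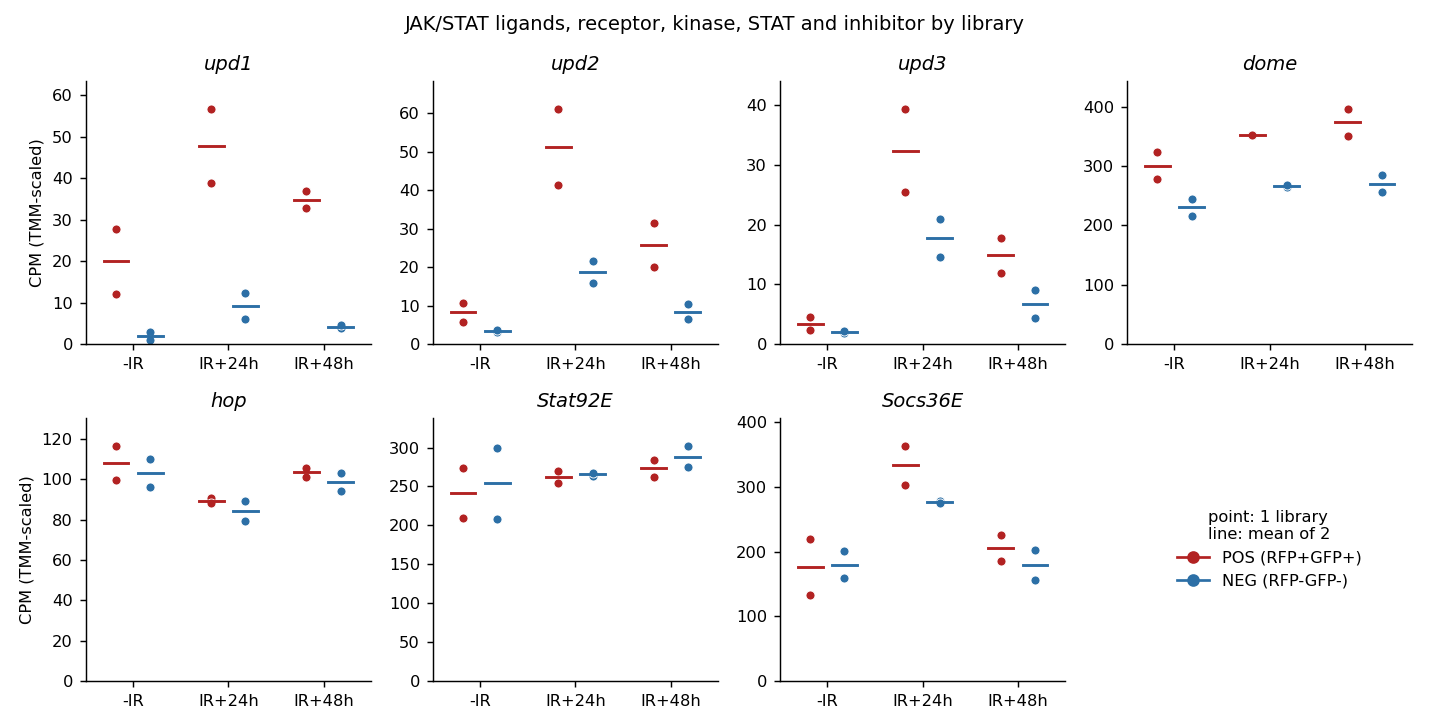
Each panel plots 1 gene, with TMM-scaled CPM on a linear axis that starts at 0 and the 3 time points from left to right. Points are libraries and lines the mean of 2, POS in red left of NEG in blue. For upd1 every POS library (12.2 to 56.6 CPM) sits above the NEG libraries of its time point, upd2 and upd3 are highest at IR+24h in both populations, and hop and Stat92E stay within narrow ranges.

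The upd1 gene encodes the founding Unpaired cytokine, which signals at short range in the embryo and the imaginal discs. Its level in POS cells was 27.8 and 12.2 CPM at -IR, 38.8 and 56.6 CPM at IR+24h, and 37.0 and 32.7 CPM at IR+48h. In NEG cells it was 2.90 and 1.09 CPM at -IR, 6.003 and 12.3 CPM at IR+24h, and 3.999 and 4.53 CPM at IR+48h. At each time both POS libraries were above both NEG libraries, although the highest NEG library of IR+24h reached the lowest POS library of -IR.

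Without IR, upd1 was 11.6-fold higher in POS than in NEG, with POS at 20.02 ± 11.04 CPM and NEG at 1.996 ± 1.28 CPM (SD, n = 2 each). The log2 fold change was 3.53 (SE, standard error, 0.568, 95% interval 2.29 to 4.77, adjusted p = 0.00884 with edgeR's quasi-likelihood test and Benjamini-Hochberg adjustment over all genes tested). upd1 was the only 1 of the 7 genes that passed in this comparison, in which 0.914% of all genes tested were higher in POS. In bulk libraries such as these, fewer expressing cells and less RNA per cell cannot be told apart. The call was lost with limma voom (adjusted p = 0.0537), with only the 4 -IR libraries in the fit (0.259) and without NEG -IR replicate 2, where the log2 fold change was 2.76 (0.0700). Without the shallow NEG -IR replicate 1 it was 4.18 (0.00520), a fold over 1.5 times that of the full set.

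After IR upd1 was again higher in POS libraries. At IR+24h POS averaged 47.7 ± 12.6 CPM of upd1 and NEG 9.15 ± 4.45 CPM, a 5.20-fold difference (log2 2.38, SE 0.474) that narrowly missed the threshold (edgeR adjusted p = 0.0568). At that time 0 of the 7 genes passed with edgeR, where 0.207% of genes were called higher in POS, while 3 of the 7 had an unadjusted p under 0.05 (7.62% of genes tested), limma voom called 1 and DESeq2 called 2. At IR+48h POS averaged 34.9 ± 2.99 CPM and NEG 4.26 ± 0.375 CPM, an 8.17-fold difference that passed (log2 3.03, SE 0.492, edgeR adjusted p = 0.0278, with 0.17% of genes called higher). A block by replicate number within each time point assumes that same-numbered POS and NEG libraries are pairs, which the labels do not say. In the fit with that block upd1 passed at all 3 times, with log2 fold changes of 3.37, 2.43 and 3.03. The edgeR adjusted p of that fit were 4.08e-06, 1.57e-05 and 5.92e-06, and they depend on the assumed pairing. That fit called 1249, 391 and 270 genes in either direction at -IR, IR+24h and IR+48h, against 284, 54 and 35 without it. The IR+48h call was lost when any 1 of the 4 IR+48h libraries was left out (edgeR adjusted p 0.106 to 0.255), and the IR+24h difference passed when any 1 of the 4 -IR libraries was left out (0.00842 to 0.0187). Without the other 8 libraries it did not pass, with an adjusted p up to 0.629 and log2 fold changes of 1.95 without NEG IR+24h replicate 1 and 2.99 without NEG IR+24h replicate 2.

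The other ligands differed less between the populations. upd2 encodes a secreted Unpaired cytokine that in the fat body serves as a leptin-like nutrient signal, and in POS cells it was at 10.8 and 5.83 CPM at -IR, 41.3 and 61.0 CPM at IR+24h, and 31.3 and 20.1 CPM at IR+48h. In NEG cells it was at 3.14 and 3.78 CPM at -IR, 16.0 and 21.6 CPM at IR+24h, and 6.48 and 10.3 CPM at IR+48h. The POS libraries were above the NEG libraries at each time without overlap. The folds of POS over NEG were 2.34, 2.72 and 3.06 in order of time, and none passed (edgeR adjusted p = 0.156, 0.187 and 0.165). With the block within each time point, upd2 passed at IR+24h (log2 1.43, edgeR adjusted p = 0.0108) and at IR+48h (log2 1.61, 0.00807) but not at -IR (log2 1.08, 0.0702). Without POS -IR replicate 2 it also passed at IR+48h in the fit without a block (log2 1.61, edgeR adjusted p = 0.0490).

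upd3 encodes the Unpaired cytokine best known from wounds and stress, where it is made by hemocytes and damaged epithelia. In POS cells it was at 4.49 and 2.29 CPM at -IR, 25.4 and 39.3 CPM at IR+24h, and 17.7 and 11.98 CPM at IR+48h. In NEG cells it was at 1.94 and 2.25 CPM at -IR, 14.6 and 20.9 CPM at IR+24h, and 4.43 and 8.99 CPM at IR+48h. Both POS libraries were above both NEG libraries at each time, although at -IR the lower POS library exceeded the higher NEG library by less than 0.1 CPM. On the log2 scale, the change in POS less that in NEG was 0.21 at 24 h (95% interval -1.24 to 1.66) and 0.50 at 48 h (-0.96 to 1.95). A wider gap after IR was therefore not shown. The folds of POS over NEG were 1.58, 1.82 and 2.22 at -IR, IR+24h and IR+48h, with 95% intervals on the log2 scale of -0.44 to 1.75, -0.06 to 1.80 and 0.20 to 2.10. None passed in the fit without a block (edgeR adjusted p = 0.574, 0.700 and 0.614), nor with it (0.550, 0.229 and 0.108). Groups without overlap were common in these comparisons, since 17.0%, 21.6% and 21.7% of all genes tested had both POS libraries above both NEG libraries at the 3 times.

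**Figure D2:**
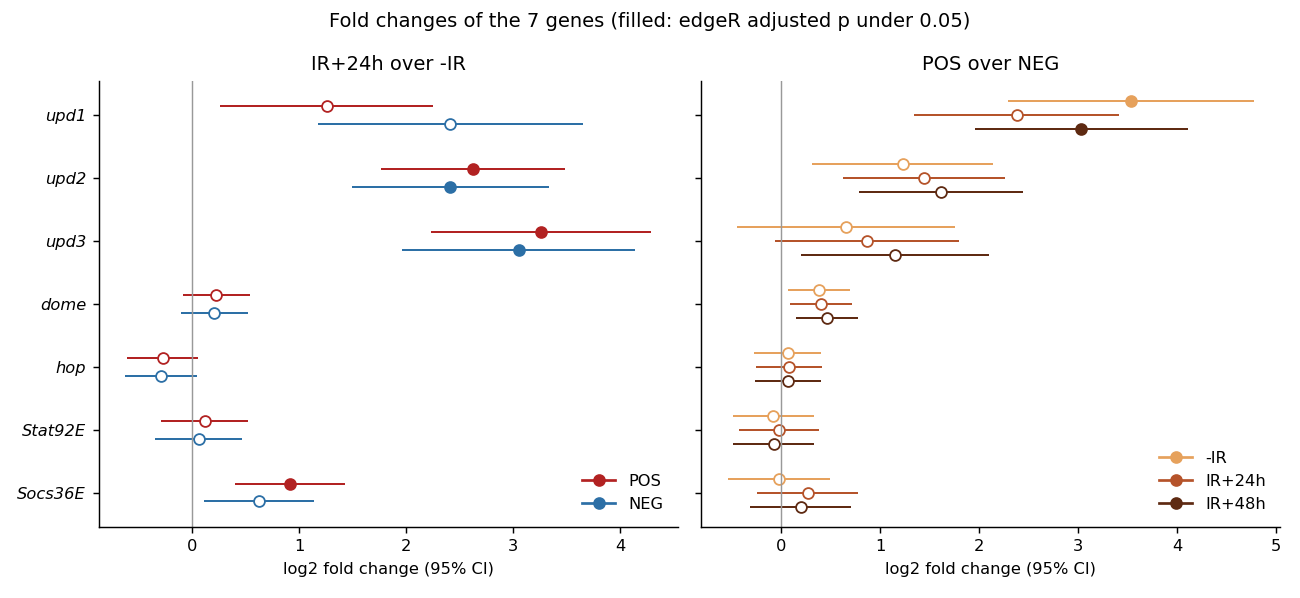
The horizontal axes give log2 fold changes with 95% intervals from the edgeR fit, for IR+24h over -IR in POS (red) and NEG (blue) on the left and for POS over NEG at each time on the right. Filled circles passed an adjusted p of 0.05. upd2 and upd3 are filled in both populations on the left, at 2.41 to 3.26, and upd1 is filled on the right at -IR and IR+48h, at 3.53 and 3.03.

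Irradiated cells of both populations had more upd2 and upd3 transcript at 24 h. In POS cells upd2 was 6.18-fold higher at IR+24h (51.1 ± 13.9 CPM) than at -IR (8.30 ± 3.50 CPM; SD, n = 2 each), a log2 fold change of 2.63 (SE 0.393, edgeR adjusted p = 0.00285). In the same cells upd3 was 9.60-fold higher at IR+24h (32.3 ± 9.83 CPM) than at -IR (3.39 ± 1.55 CPM), a log2 fold change of 3.26 (SE 0.471, edgeR adjusted p = 0.00223). With Socs36E, described below, 3 of the 7 genes passed in this direction and 0 in the other, against 4.14% of all genes tested called higher and 1.19% called lower. Both ligand calls held with each of the 12 libraries left out in turn and under each of the 8 other settings run. upd1, at 47.7 ± 12.6 CPM in POS IR+24h and 20.02 ± 11.04 CPM in POS -IR, missed the threshold (log2 1.26, SE 0.454, edgeR adjusted p = 0.153), but passed without POS -IR replicate 1 (log2 1.97, 0.0345), with limma voom (log2 1.42, adjusted p = 0.0299), with no filter (0.00470) and with the IR+24h numbers crossed in a replicate block (0.0358). Leaving out any other library gave log2 fold changes down to 0.78, without POS -IR replicate 2, and adjusted p up to 0.718, without POS IR+24h replicate 2.

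In NEG cells upd2 was 5.33-fold higher at IR+24h (18.8 ± 3.97 CPM) than at -IR (3.46 ± 0.446 CPM), a log2 fold change of 2.41 (SE 0.421, edgeR adjusted p = 0.0111). There upd3 was 8.29-fold higher at IR+24h (17.7 ± 4.46 CPM) than at -IR (2.09 ± 0.223 CPM), a log2 fold change of 3.05 (SE 0.499, edgeR adjusted p = 0.00774). These were 2 of the 7 genes, where 1.89% of all genes tested were called higher and 0.264% lower. upd1 was at 9.15 ± 4.45 CPM in NEG IR+24h and 1.996 ± 1.28 CPM in NEG -IR, and its log2 fold change of 2.41 (SE 0.566) missed the threshold (edgeR adjusted p = 0.0537). It passed without any 1 of NEG -IR replicate 1, NEG IR+24h replicate 1 and the 2 POS -IR libraries (log2 2.44 to 3.04, edgeR adjusted p 0.0124 to 0.0491), with DESeq2 (0.000846), with no filter (6.81e-07) and with the crossed block (0.00979). Without any other library it did not pass, down to log2 1.66 without NEG -IR replicate 2 and with an adjusted p up to 0.422 without NEG IR+24h replicate 2. The calls for upd2 and upd3 were lost with limma voom (adjusted p = 0.111 and 0.0654), with only the groups compared (0.0767 and 0.0556) and without NEG IR+24h replicate 2 (edgeR adjusted p = 0.0992 and 0.0697).

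At 48 h the mean level of each ligand lay between its means at 24 h and at -IR in both populations. Compared with -IR, upd3 in POS was 4.41-fold higher, at 14.9 ± 4.07 CPM in IR+48h and 3.39 ± 1.55 CPM in -IR (log2 2.14, SE 0.456, edgeR adjusted p = 0.0407), and was the only 1 of the 7 genes that passed, where 1.27% of genes tested were called higher. It was no longer called without any of 7 of the 12 libraries, the 2 of POS IR+48h, the 4 of IR+24h and POS -IR replicate 2. Without any 1 of the 4 IR+24h libraries the log2 fold change stayed at 2.14, while the fit tested more genes. The call was also lost with limma voom (adjusted p = 0.0600) and with only the groups compared (0.239). The corresponding log2 fold changes in POS were 1.64 for upd2 (edgeR adjusted p = 0.0594, and 0.0327 to 0.0374 without any 1 of POS -IR replicate 1 and the 2 NEG -IR libraries) and 0.80 for upd1 (0.465). In NEG cells the values at IR+48h over -IR were 1.31 for upd1, 1.25 for upd2 and 1.65 for upd3, with 0 of the 7 genes passing under edgeR, DESeq2 or limma voom and 3 of them at an unadjusted p under 0.05, where 0.113% of genes tested were called higher and 10.5% were under that p. The 24 h and 48 h comparisons of a population share their -IR libraries.

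Between IR+48h and IR+24h the ligands all had negative log2 fold changes, -0.45, -0.99 and -1.12 for upd1, upd2 and upd3 in POS and -1.11, -1.16 and -1.41 in NEG. No gene of the 10617 passed in either population with edgeR (0.0%), whereas 523 genes in POS (4.93%) and 645 in NEG (6.08%) had an unadjusted p under 0.05. limma voom called 5 genes in POS and 9 in NEG, and DESeq2 called 77 and 73, with 0 of the 7 genes among them. At an unadjusted p under 0.05 stood upd2, upd3 and Socs36E in POS, and the same genes with upd1 in NEG.

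The change after IR was then compared between POS and NEG directly. For upd2 the change in POS less that in NEG at 24 h was 0.21 on the log2 scale (95% interval -1.01 to 1.44), and for upd3 it was 0.21 (-1.24 to 1.66). The upd1 value was -1.15 at 24 h (-2.73 to 0.42) and -0.50 at 48 h (-2.09 to 1.08). None of the 7 genes had an unadjusted p under 0.05 at either time, and 0 of them passed with edgeR, DESeq2 or limma voom. Over all genes, 0 passed with edgeR at 24 h (0.0%) and 2 at 48 h (0.0188%), with 353 and 350 (3.32% and 3.3%) at an unadjusted p under 0.05. limma voom called 0 at both times and DESeq2 called 15 and 23. The intervals include differences of more than 2-fold in either direction for upd2 and upd3, so that equal induction was not shown.

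**Figure D3:**
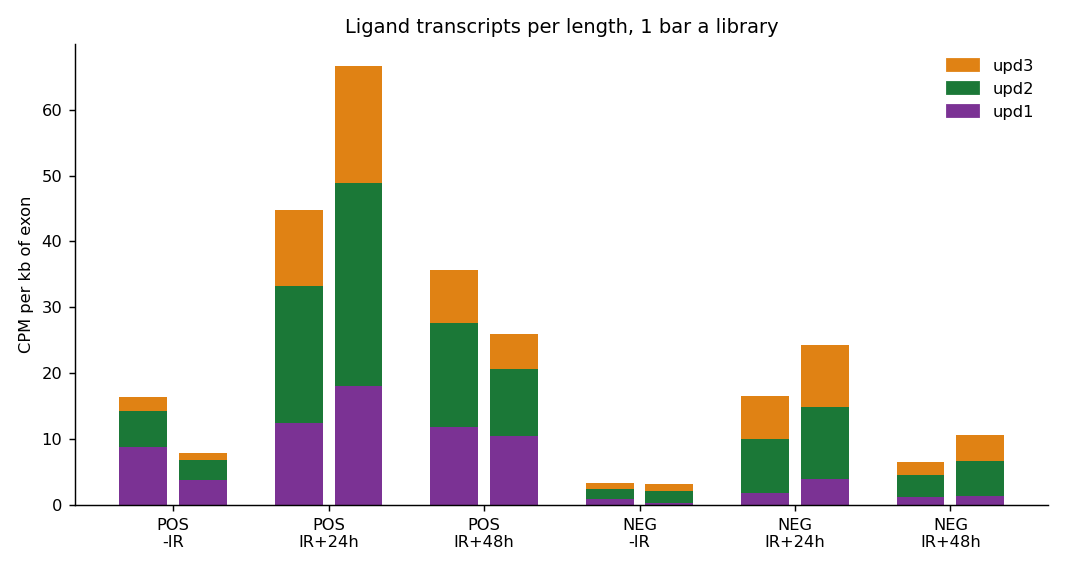
Each bar is 1 library and stacks the levels of upd1, upd2 and upd3 in CPM per kb of exon, with the 3 POS groups on the left and the 3 NEG groups on the right. The summed level is highest in the POS IR+24h libraries (44.7 and 66.6), and the upd1 part of the bar is larger in POS than in NEG at each time.

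The mix of ligands was read on a per-length scale that allows genes to be set side by side. Summed over the 3 ligands, the level in POS was 12.1 ± 5.999, 55.7 ± 15.5 and 30.8 ± 6.81 CPM per kb in order of time (SD, n = 2 each). In NEG it was 3.33 ± 0.0843, 20.4 ± 5.44 and 8.64 ± 2.95 CPM per kb at those times. Ordered by mean, POS IR+24h came highest, then POS IR+48h, NEG IR+24h, POS -IR, NEG IR+48h and NEG -IR. Among these neighbours the libraries of POS -IR (16.4 and 7.89) overlapped those of NEG IR+48h (6.55 and 10.7), and NEG IR+24h (16.6 and 24.3) lay within the summed SDs of both POS IR+48h and POS -IR.

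Of that sum, upd1 made up 52.0% ± 3.42, 27.5% ± 0.423 and 36.7% ± 5.02 in POS at -IR, IR+24h and IR+48h, and 19.0% ± 11.8, 13.9% ± 3.27 and 16.5% ± 4.26 in NEG. The share of upd3 was 12.7% ± 0.532, 26.1% ± 0.707 and 21.6% ± 1.18 in POS, and 28.4% ± 3.74, 39.2% ± 0.607 and 34.1% ± 5.16 in NEG. Thus upd1 was the most abundant ligand transcript per length in POS -IR alone. In the other groups upd2 had the largest mean share, 46.4% ± 0.284 and 41.7% ± 3.84 in POS at IR+24h and IR+48h, and 52.6% ± 8.11, 46.9% ± 2.67 and 49.4% ± 0.905 in NEG at -IR, IR+24h and IR+48h. In POS IR+48h the upd1 and upd2 shares were within their SDs of each other. These shares are a description and were not tested.

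Markers of other cells moved with some of these comparisons. Hemocytes are a known source of upd3, and their 6 markers were at 5.71 to 8.44 CPM in POS IR+24h against 9.61 to 14.8 CPM in POS -IR, with none of the 6 passing. In NEG they summed to 76.9 to 247 CPM at IR+24h against 62.9 to 143 CPM at -IR. There too 0 of the 6 passed, and their median log2 fold change was -0.25. At IR+48h the NEG sum was 288 to 293 CPM. The part of hemocytes in the ligand values was not tested. Of the 5 muscle precursor markers, htl was called higher in POS at IR+24h, htl and twi were called higher after 48 h, and Him was called lower in NEG at IR+24h. For POS over NEG 4, 3 and 1 of these 5 were called lower in order of time, beside 1.76%, 0.301% and 0.16% of all genes tested. For IR+24h over -IR, 4.14% of all genes tested were called higher and 1.19% lower in POS, and 0.264% lower in NEG. For IR+48h over -IR in POS, 1.27% were called higher. Of the 5 hinge markers, hth was called lower in POS at IR+24h, when their sum was 4798 to 5771 CPM against 6467 to 9841 CPM at -IR. Of 5 notum markers, ara and caup were called lower in POS at IR+24h, when the 5 summed to 62.5 to 77.9 CPM against 115.3 to 176 CPM at -IR. For POS over NEG 1 of them was called lower at each time (pnr at -IR, tup after IR). Of 6 pouch markers, vg, dve, ana and Cyp310a1 were called lower in POS than in NEG at -IR, where the 6 summed to 391 to 610 CPM in POS and 1002 to 1076 CPM in NEG, and none passed in the other comparisons. The part of hinge, muscle precursor, notum and pouch cells in the ligand values was not tested.

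dome encodes the receptor for all Unpaired ligands, a distant relative of vertebrate gp130 receptors. It was at 278 and 323 CPM in POS -IR, 352 and 352 CPM in POS IR+24h and 396 and 351 CPM in POS IR+48h. In NEG it was at 216 and 244 CPM at -IR, 265 and 268 CPM at IR+24h and 256 and 285 CPM at IR+48h. Both POS libraries were above both NEG libraries at each time, as for 17.0%, 21.6% and 21.7% of all genes tested. The folds were small, 1.30, 1.32 and 1.38 in order of time, with log2 fold changes of 0.38, 0.40 and 0.47 and an SE of 0.143 each. None passed, with edgeR adjusted p of 0.197, 0.434 and 0.400 without the block and 0.0665, 0.118 and 0.0750 with it. After IR, dome had log2 fold changes over -IR of 0.23 and 0.31 in POS at 24 and 48 h, and of 0.21 and 0.23 in NEG (edgeR adjusted p 0.344 to 0.602).

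hop encodes the only Janus kinase of the fly. It was at 99.7 and 117 CPM in POS -IR, 90.5 and 88.3 CPM in POS IR+24h and 101 and 106 CPM in POS IR+48h, and at 96.3 and 110, 79.5 and 89.4, and 94.0 and 103 CPM in NEG at those times. POS and NEG overlapped at each time, with log2 fold changes of POS over NEG of 0.07, 0.08 and 0.07 (95% intervals between -0.27 and 0.41). Both populations had their lowest values at IR+24h, with log2 fold changes over -IR of -0.27 in POS and -0.29 in NEG and no overlap with -IR, as for 21.6% and 17.7% of all genes tested, and neither passed (edgeR adjusted p = 0.380 and 0.458).

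Stat92E, the single STAT transcription factor of the fly, had the smallest ratio of highest to lowest library, 1.45 beside 1.47 for hop. Its level was 209 and 273 CPM at -IR, 254 and 270 CPM at IR+24h and 284 and 263 CPM at IR+48h in POS, and 208 and 300 CPM, 264 and 268 CPM, and 274 and 302 CPM in NEG. The log2 fold changes of POS over NEG were -0.08, -0.02 and -0.08 (95% intervals between -0.49 and 0.39), of which those at -IR and IR+24h turned to 0.02 and 0.05 with library sizes without TMM. After IR the values over -IR lay between 0.06 and 0.18 in both populations (edgeR adjusted p 0.740 to 0.931).

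Socs36E encodes a suppressor of cytokine signaling that is switched on by Stat92E in flies and is widely used as a readout of the pathway. In POS it was at 220 and 133 CPM at -IR, 303 and 363 CPM at IR+24h and 226 and 186 CPM at IR+48h. In NEG it was at 201 and 159 CPM at -IR, 278 and 275 CPM at IR+24h and 156 and 203 CPM at IR+48h. The IR+24h libraries of both populations were above all others. In POS Socs36E was 1.89-fold higher at IR+24h (333 ± 42.3 CPM) than at -IR (177 ± 61.3 CPM; SD, n = 2 each), a log2 fold change of 0.92 (SE 0.235, edgeR adjusted p = 0.0451). In NEG it averaged 277 ± 2.57 CPM at IR+24h and 180 ± 30.2 CPM at -IR, a log2 fold change of 0.62 (SE 0.236) that did not pass (edgeR adjusted p = 0.268). The 2 changes differed by 0.29 (95% interval -0.43 to 1.02).

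The POS call for Socs36E was close to the threshold. It was lost with library sizes without TMM (adjusted p = 0.0573), with only the groups compared (0.187) and without any of 9 of the 12 libraries, all 8 of IR+24h and IR+48h and POS -IR replicate 2, with adjusted p up to 0.372. Without POS -IR replicate 2 the log2 fold change was 0.60 (edgeR adjusted p = 0.174). At IR+24h both POS libraries of Socs36E were above both NEG libraries, as for 21.6% of all genes tested. At the other times the populations overlapped. The log2 fold changes of POS over NEG were -0.02, 0.27 and 0.20 in order of time and did not pass (edgeR adjusted p 0.919 or above), and that at -IR turned to 0.08 with library sizes without TMM. At IR+48h the level over -IR was 0.22 in POS and 0.00 in NEG on the log2 scale.

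The wider pathway was read from a list of 17 core genes and regulators, the 7 included, all of which were tested. At IR+24h over -IR, 4 were called higher in POS (upd2, upd3, Socs36E and Stam) and 2 in NEG (upd2 and upd3), and 0 were called lower in either, beside 4.14% of all genes tested called higher in POS and 1.89% in NEG. The median log2 fold change of the list was 0.13 in POS and 0.14 in NEG, beside -0.04 and -0.01 over all genes tested. Stam, an endosomal adaptor that binds ubiquitinated receptors, was at 80.2 and 97.9 CPM in POS IR+24h against 48.9 and 54.1 CPM in POS -IR (log2 0.79, SE 0.178, edgeR adjusted p = 0.0253). It was no longer called without any of 5 libraries, the 2 of POS -IR, the 2 of POS IR+24h and NEG IR+48h replicate 2, or with only the groups compared. Ptp61F, a tyrosine phosphatase that acts on Hop and Stat92E, had log2 fold changes of 0.65 in POS (edgeR adjusted p = 0.0638) and 0.55 in NEG (0.193). The POS change of Ptp61F was called in 4 of 8 other settings and the NEG change in 0. The short receptor gene et (eye transformer), which lies beside dome, was at 3.52 to 13.4 CPM over the 12 libraries, and IR+24h overlapped -IR in both populations. Socs44A and Socs16D, the other SOCS genes of the list, had values of 0.28 and -0.19 in POS and did not pass. For POS over NEG, 1 of the 17 was called at -IR and at IR+48h, upd1, and 0 at IR+24h, beside 0.914%, 0.207% and 0.17% of all genes tested called higher at -IR, IR+24h and IR+48h.

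**Figure D4:**
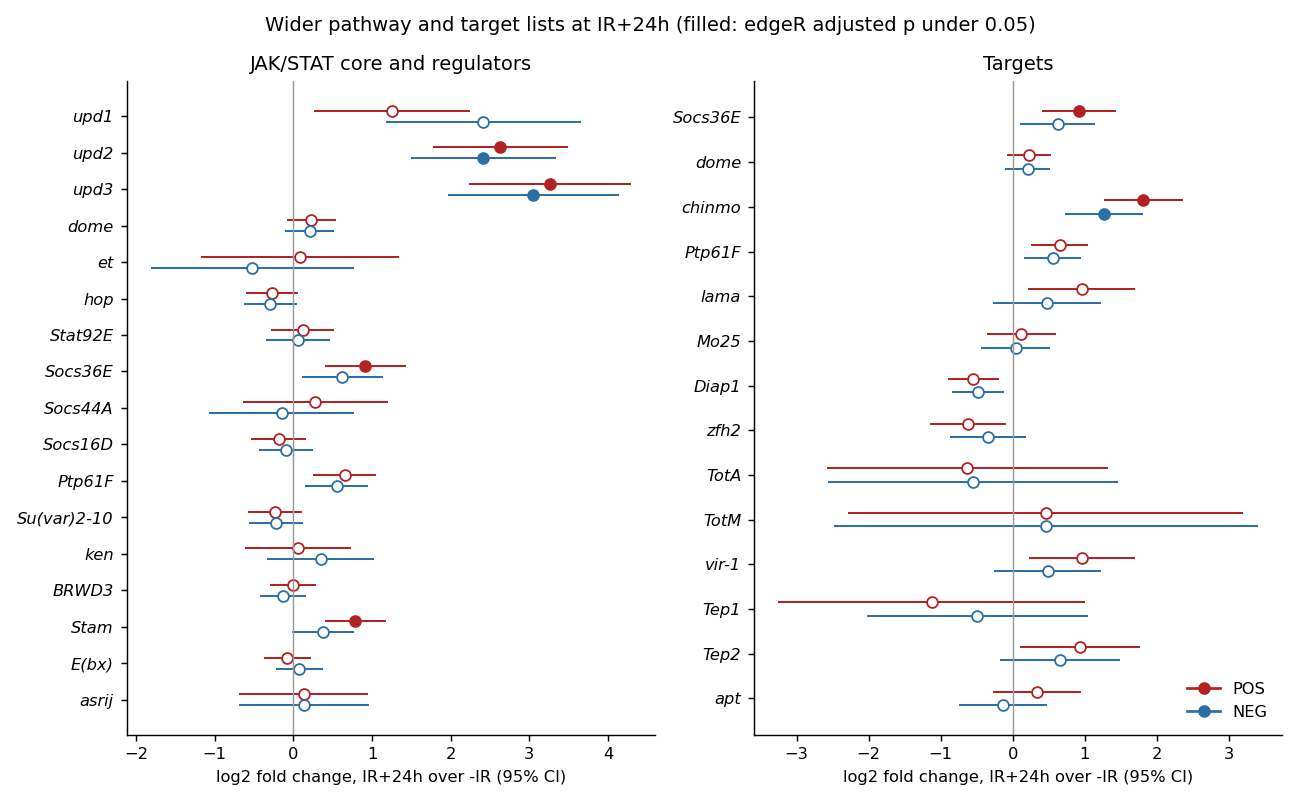
The log2 fold change of IR+24h over -IR, with its 95% interval, is shown for 17 core genes and regulators on the left and for 14 tested targets on the right, POS in red above NEG in blue. Filled circles passed an adjusted p of 0.05, and beside upd2, upd3 and Socs36E they mark Stam in POS and chinmo in both populations.

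Of 16 genes listed as targets of the pathway in flies, 14 were tested and 2 were too low. At IR+24h over -IR, 2 were called higher in POS (Socs36E and chinmo) and 1 in NEG (chinmo), and 0 were called lower, where 4.14% of all genes tested were called higher in POS and 1.89% in NEG. The list medians were 0.40 in POS and 0.34 in NEG, beside -0.04 and -0.01 over all genes. chinmo, which encodes a BTB zinc-finger transcription factor, was at 644 and 691 CPM in POS IR+24h against 215 and 165 CPM in POS -IR, a log2 fold change of 1.82 (SE 0.253, edgeR adjusted p = 0.00175). In NEG it was at 507 and 726 CPM at IR+24h against 293 and 219 CPM at -IR (log2 1.27, SE 0.249, edgeR adjusted p = 0.0215). The NEG call was lost without NEG -IR replicate 2, without NEG IR+24h replicate 2 (adjusted p = 0.241) and with only the groups compared (0.114). Diap1, an inhibitor of apoptosis, had negative values of -0.55 in POS and -0.48 in NEG (edgeR adjusted p = 0.0814 and 0.208), and 11.04% of its exon bases overlap an antisense RNA. The POS change of Diap1 was called in 2 of 8 other settings and the NEG change in 0. vir-1, lama and Tep2 had log2 fold changes of 0.97, 0.96 and 0.93 in POS and did not pass (edgeR adjusted p 0.141 to 0.206), and 87.6% of the lama exons overlap CG46456 on the same strand, so that its counts are uncertain. The POS change of lama was called in 1 of 8 other settings.

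Between the populations, the targets did not move together. zfh2, a zinc-finger hinge determinant that is also one of the hinge markers, was higher in POS at all 3 times, with log2 fold changes of 3.30, 3.02 and 2.92 (edgeR adjusted p = 8.86e-05, 5e-04 and 5.02e-04), and 18.7% of its exon bases overlap Tdg on the opposite strand. Tep1, a complement-like protein gene, was lower in POS at all 3 times, at 7 and 11, 8 and 0, and 3 and 4 counts in POS against 24 and 249, 116 and 117, and 274 and 166 counts in NEG (log2 -4.26, -4.89 and -5.99, edgeR adjusted p = 0.0236, 0.0425 and 0.0253), where 1.76%, 0.301% and 0.16% of genes tested were called lower. Its calls were lost when either replicate 2 of -IR was left out at -IR, any 1 of 5 libraries at IR+24h or any 1 of the 4 IR+48h libraries at IR+48h. They were also lost at -IR with only the groups compared (adjusted p = 0.228), and at IR+24h with limma voom (0.0966) and with the replicate block over all times. With 1 library left out the -IR value ran from -4.82 (without NEG replicate 1) to -3.20 (without NEG replicate 2), and the IR+24h value from -9.97 (without POS replicate 1, which leaves POS at 0 counts and gives no bound) to -3.86 (without POS replicate 2). Hemocyte markers were also lower in POS, and their part in the Tep1 difference was not tested. The other 12 tested targets did not pass at any time, and the list medians of POS over NEG were 0.09, 0.31 and 0.17 beside 0.01, -0.02 and 0.01 over all genes. TotX, a stress peptide gene, had 0 counts in all 12 libraries, which allows up to 0.726 CPM in the shallowest and 0.146 CPM in the deepest, for counting error only, and TotC had at most 6 counts.

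The genes most alike in pattern to each of the 7 were named by the highest Pearson correlation of log2 CPM over the 12 libraries, among 6094 genes with a mean of at least 10 CPM. The points share libraries, scaling and the 6 groups, and the values are a description. The ligands each had a different pair, spel1 (0.959) and Kank (0.952) for upd1, Ets21C (0.973) and Mmp1 (0.968) for upd2, and CG6325 (0.976) and SP1173 (0.967) for upd3. Ets21C, an ETS transcription factor gene, averaged 392 CPM in POS IR+24h and 65.5 CPM in POS -IR. Its NEG means were 121 CPM at IR+24h and 39.6 CPM at -IR. Mmp1, a matrix metalloproteinase gene, averaged 1089 and 264 CPM in the same POS groups and 469 and 159 CPM in the same NEG groups. A high correlation does not mean a change of like size. CG6325 averaged 32.3 and 24.1 CPM in those POS groups and 31.4 and 21.1 CPM in those NEG groups, a far smaller change than that of upd3. SP1173 averaged 498 and 287 CPM in POS and 466 and 287 CPM in NEG. For the other genes the pairs were uif (0.931) and mfas (0.921) for dome, put (0.922) and drpr (0.917) for hop, msps (0.973) and tai (0.964) for Stat92E, and pst (0.973) and CG9646 (0.953) for Socs36E.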

How the data were processed

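Poly-A RNA from POS and NEG cells was sequenced by the authors with 2 libraries per group. Per the labels and the study's methods, the authors trimmed reads with BBDuk, aligned and counted them with STAR 2.6.0a on the BDGP6 genome with Ensembl annotation, and deposited raw counts per gene without normalization. The strand used for counting is not given in the sources used here. A total of 1 column matched no sample and was not used, and 0 ERCC rows were in the table.

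Counts were tested with edgeR 4.0.16 in R 4.3.3 (filterByExpr, 10617 genes kept, TMM factors, 6 group means over all 12 libraries, quasi-likelihood F test, two-sided, Benjamini-Hochberg adjustment over all genes kept, threshold 0.05, common biological coefficient of variation 0.303). Standard errors are the log2 fold change divided by the square root of F, and 95% intervals use the fit's t distribution. CPM carry TMM factors, and CPM per kb divides them by the exon length in the BDGP6.54 annotation, on the same Release 6 assembly. The test, and each alternative tool, was tested on simulated data. Alternatives were limma voom 3.58.1 (used by the authors), DESeq2 1.42.0, unscaled library sizes, no filter, a minimum of 1 CPM in each of the 12 libraries, only the groups compared, replicate blocks and each library left out.

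Replicate numbers come from the labels, and libraries are described as independent biological samples. The numbers were read as pairing POS with NEG within a time point, because the deviations from group means of same-numbered POS and NEG libraries correlated over 10617 genes at each time (r = 0.471, 0.110 and 0.162 at -IR, IR+24h and IR+48h, across genes, which are not independent replicates). The labels do not say that same-numbered libraries were made together. The pairing was thus read from the same counts that the block fit tests. With 2 libraries a group these correlations cannot establish it, so the adjusted p of that fit depend on an assumed pairing.

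The 7 genes and the lists were chosen with earlier results of these data known. Named genes were the 7, listed genes with their values, and, for each of the 7, the 2 genes of most similar pattern. In the list of core genes and regulators, 1 gene was matched through a synonym (asrij).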

Additional observations from a re-analysis of the deposited data

How the results depend on the processing

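Most log2 fold changes of the 7 genes, and some of chinmo, Stam, Ptp61F, lama, Diap1, Tep1 and zfh2, were refitted under each setting. Counted as fits, 957 of those with 1 library left out kept their direction and side of the threshold, 41 lost and 18 gained a call and 28 changed sign. Under the other settings 649 fits were kept, 16 lost and 40 gained a call and 12 changed sign. In both counts the fits kept include results that were not called in the edgeR fit of all 12 libraries and stayed uncalled. The counts therefore do not give the share of calls that held. The number of the 7 genes called for POS over NEG was 1, 0 and 1 in order of time. At -IR it was 0 with limma voom, with 1 CPM in all 12 libraries (which removes upd1) and with only the groups compared, and 2 with no filter. At IR+24h it was 1 with limma voom and with the replicate block with the IR+24h numbers crossed, and 2 with DESeq2, with no filter, with only the groups compared and with the replicate block within each time point. At IR+48h it was 2 with DESeq2, no filter, only the groups compared and the replicate block within each time point, and 0 with 1 CPM in all 12 libraries. For IR+48h over -IR in POS (1 called) it was 0 with limma voom, the replicate block and only the groups compared, and 2 with DESeq2, no filter and the crossed block. For IR+24h over -IR in NEG (2 called) it was 0 with limma voom and with only the groups compared, and 3 with DESeq2, no filter and the crossed block, and in POS (3 called) it was 4 with limma voom, no filter and the crossed block and 2 without TMM and with only the groups compared. It was 3 for IR+48h over IR+24h in POS with only the groups compared, and with no filter 2 for IR+48h over -IR in NEG and 1 for IR+48h over IR+24h in NEG, each against 0. The share of all genes tested that each setting called moved as well. For POS over NEG at -IR it was 2.67%, against 2.29% with limma voom, 4.8% with no filter and 0.21% with only the groups compared. At IR+24h and IR+48h it was 0.509% and 0.33%, against 0.396% and 0.48% with limma voom, 1.67% and 1.22% with DESeq2, 2.14% and 1.63% with no filter, 5.34% and 1.78% with only the groups compared, and 3.68% and 2.54% with the replicate block within each time point. For IR+48h over IR+24h in POS it was 3.99% with only the groups compared, against 0.0%. For IR+24h over -IR it was 5.33% in POS and 2.16% in NEG, against 6.45% and 1.76% with limma voom, 9.45% and 4.71% with DESeq2, 6.34% and 3.94% with no filter, and 1.59% and 0.504% with only the groups compared. For IR+48h over -IR it was 1.63% in POS and 0.113% in NEG, against 5.32% and 1.35% with DESeq2 and 4.0% and 1.87% with no filter. In POS that share was 1.69% with limma voom, 1.39% with the replicate block, 0.0308% with only the groups compared and 2.67% with the crossed block. The crossed block called 0.923% for POS over NEG at IR+24h, and 6.98% in POS and 2.97% in NEG for IR+24h over -IR. With no filter the share for IR+48h over IR+24h in NEG was 0.991%. With 1 library left out the counts ran from 0 to 1, 0 to 1 and 0 to 2 for POS over NEG at -IR, IR+24h and IR+48h, from 0 to 2 for IR+48h over -IR in POS, from 2 to 4 for IR+24h over -IR in POS and from 0 to 3 in NEG. A group left with 1 library is assumed to vary like the others. Leaving out 1 library also changed the filter, which then kept 11387 to 11490 genes instead of 10617. A call lost or gained in such a fit therefore cannot be assigned to the library left out alone. The cause of these changes was not tested, apart from the genes that a filter removes.

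Under the settings other than leaving 1 library out, values that changed sign lay within 0.1 of 0. Stat92E POS over NEG was 0.021 at -IR with library sizes without TMM, and at IR+24h 0.011 with DESeq2, 0.050 without TMM, 0.015 with no filter and 0.029 with 1 CPM in all 12 libraries. Socs36E POS over NEG at -IR was 0.00035 with DESeq2, 0.084 without TMM, 0.021 with no filter and 0.015 with 1 CPM in all 12 libraries, and its IR+48h over -IR value in NEG was -0.0062 with 1 CPM in all 12 libraries and -0.016 with only the groups compared. hop IR+48h over -IR in NEG was 0.012 without TMM. Library sizes without TMM put the median of all genes for POS over NEG at -IR at 0.12, against 0.01 with TMM. With 1 library left out, values that changed sign ranged, for Socs36E, from -0.43 to 0.30 (POS over NEG, -IR), -0.088 to 0.63 (IR+48h over -IR, POS), -0.17 to 0.18 (NEG), and -0.022 to 0.69 and -0.10 to 0.62 (POS change minus NEG change at 24 and 48 h). For Stat92E they ranged from -0.31 to 0.20 and -0.068 to 0.023 (POS over NEG, -IR and IR+24h), -0.060 to 0.32 and -0.19 to 0.35 (IR+24h over -IR, POS and NEG) and -0.056 to 0.48 (IR+48h over -IR, NEG). For hop they ranged from -0.051 to 0.18 and -0.0019 to 0.17 (POS over NEG, -IR and IR+24h), -0.17 to 0.060 and -0.16 to 0.044 (IR+48h over -IR, POS and NEG), and for dome from -0.0031 to 0.17 and -0.027 to 0.10 (IR+48h over IR+24h, POS and NEG). The POS change minus the NEG change ranged from -1.16 to 0.26 for upd1 at 48 h, and at 24 h from -0.15 to 0.72 for upd2 and -0.19 to 0.76 for upd3.

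The replicate block over all time points ended 1 call among the 7 genes, upd3 at IR+48h over -IR in POS (2.14, edgeR adjusted p = 0.0529). Between time points the same-numbered libraries did not deviate together (r from -0.216 to 0.0742), and crossing the IR+24h numbers, chosen after seeing the data, called 741 genes in POS and 315 in NEG for IR+24h over -IR, against 566 and 229 without a block. In NEG -IR, upd1, upd2 and upd3 had 12, 13 and 8 counts in replicate 1 and 15, 52 and 31 in replicate 2, which limits the precision of these values.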

Other observations

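In both populations at -IR, replicate 1 had the higher level of upd1 and Socs36E. upd1 was at 27.8 CPM in replicate 1 and 12.2 CPM in replicate 2 of POS, and at 2.90 and 1.09 CPM in NEG, and Socs36E was at 220 and 133 CPM in POS and at 201 and 159 CPM in NEG. Stat92E, dome and hop had the lower level in replicate 1 of both populations, for Stat92E 209 and 273 CPM in POS and 208 and 300 CPM in NEG. The reason was not tested.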
